A study of Mus musculus with 18 samples.

Results

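Dppa2, Dppa3, Dppa4 and Dppa5a are 4 mouse genes that share the name developmental pluripotency-associated. They were taken by symbol from a count table of 25239 gene symbols, and all 4 passed the filter on low counts that left 17545 genes for testing. The series concerns the move of primed mouse stem cells to the naive state, and its title names Cpt1a and lipid remodelling. RNA was sequenced from 18 libraries in 6 groups of 3: EpiSC, labelled as primed stem cells and taken here as the start; D3, D5 and D8, labelled transient; rES, labelled naive; and ESC, labelled mESC. The labels give mouse embryo as the tissue for the samples and name no strain, genotype, animal age, medium, treatment or number of lines. Nothing in them tells if the 3 replicates of a group came from different cultures; the p-values therefore cover the spread among these libraries alone, which could be technical.

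The shared name does not make the genes 1 sequence family. Dppa2 and Dppa4 encode related SAP-domain proteins that bind each other and chromatin, hold developmental promoters in a state open to activation, and can switch on genes of the early cleavage embryo. Dppa3, also called Stella or PGC7, binds UHRF1 and limits maintenance DNA methylation. It marks primordial germ cells and naive cells, and its maternal protein protects the zygote's maternal genome. Dppa5a, also called ESG1, encodes a small KH-domain RNA-binding protein that is abundant in naive mouse stem cells. Naive cells resemble the epiblast before implantation, and primed EpiSC resemble it after implantation.

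On the mouse assembly GRCm38 (mm10), as annotated in GENCODE vM21, Dppa4 lies on the plus strand of chromosome 16 at 48283733 to 48294237 and Dppa2 follows it on the same strand at 48303908 to 48319723. A gap of 9.67 kb with no other protein-coding gene separates them. Dppa3 lies on the plus strand of chromosome 6 at 122626410 to 122630272, and Dppa5a on the minus strand of chromosome 9 at 78367052 to 78368177. No annotated gene overlaps any of the 4. Retrocopies and pseudogenes do share sequence with them: of all 75-base stretches of their annotated transcripts, 25.7% for Dppa2, 20.1% for Dppa4, 19.4% for Dppa5a and 3.79% for Dppa3 also occur in transcripts of other genes. The levels are uncertain to that extent, since the treatment of such reads is not given in the sources used here.

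Libraries held 58.4 to 101.6 M counts, the deepest being D8 replicate 2. The 10 naive markers summed to 33.1 to 45.4 CPM, counts scaled to a library of 1 M, in EpiSC, where Zfp42, Nr0b1 and Tcl1 had no count, and to 3688.5 to 3689.4 CPM in ESC. Primed markers went the other way, with 1974 to 2159 CPM in EpiSC and 166 to 174 CPM in ESC. The D3, D5 and D8 libraries also held RNA of marker genes of other cell types: 8 trophoblast markers summed to 2439 to 3394 CPM across these 9 libraries against 114 to 146 CPM in EpiSC, and all 8 had counts in each of the 3 groups. The 8 fibroblast markers summed to 471 to 1675 CPM there against 33.3 to 50.2 CPM in EpiSC. Col1a1 was the largest part, at means of 404, 441 and 605 CPM at D3, D5 and D8. Not all of the 8 rose: Thy1 fell from 10.55 CPM in EpiSC to 2.34 and 1.32 CPM at D5 and D8. Twist1 was at 3.30 CPM in EpiSC and at 2.07 and 2.42 CPM at D5 and D8. At D3 Postn, Dcn and Lum stood at 0.887, 1.35 and 0.725 CPM, against 0.444, 1.10 and 0.0636 CPM in EpiSC. In such bulk samples, fewer cells of a type and less RNA per cell cannot be told apart, and the part of these other cell types in the Dppa levels was not tested.

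All 4 genes were near their lowest in EpiSC and far higher in rES and ESC. In ESC against EpiSC, all 4 were called higher by edgeR's quasi-likelihood test at an adjusted p of 0.05, where 31.2% of tested genes were called higher and 36.1% lower. In rES against EpiSC all 4 were again higher, beside 31.9% of tested genes higher and 37.5% lower. These 2 comparisons share the EpiSC libraries. The genes differed in when they left their EpiSC level, in whether they rose at every step, and in whether rES matched ESC.

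**Figure D1:**
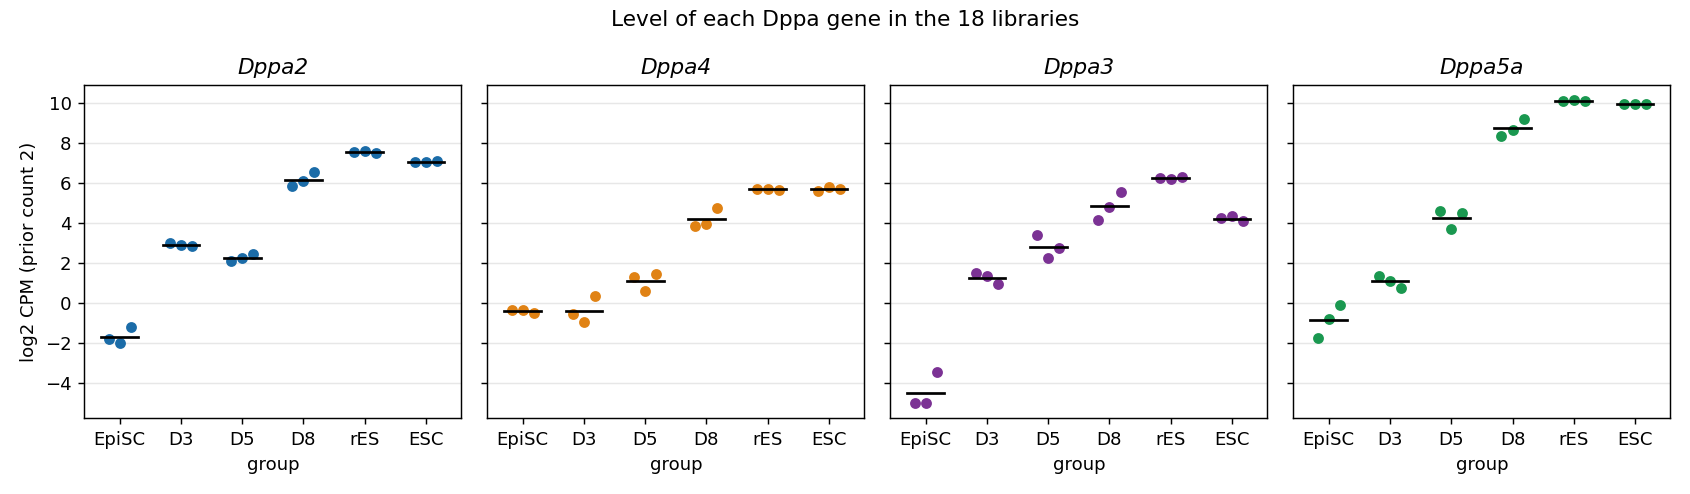
Level of Dppa2, Dppa4, Dppa3 and Dppa5a in each of the 18 libraries, as log2 CPM with a prior count of 2 on the vertical axis, by group on the horizontal axis. Each point is 1 library and each bar the group mean; Dppa2 is lower at D5 than at D3, Dppa4 overlaps between EpiSC and D3, and Dppa3 is higher in rES than in ESC.

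Dppa2, the partner of Dppa4 in the SAP-domain pair, was detected at trace level in EpiSC, at 0.257, 0.222 and 0.405 CPM in the 3 libraries. It reached 8.01, 7.50 and 7.26 CPM at D3 and stood at 4.28, 4.82 and 5.48 CPM at D5. It then rose to 59.2, 68.7 and 93.1 CPM at D8. The D3 libraries lay above the EpiSC and D5 libraries without overlap, so Dppa2 rose, dipped and rose again. It reached 188, 193 and 181 CPM in rES and 133, 134 and 138 CPM in ESC, with every rES library above every ESC library.

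The early rise of Dppa2 was 4.55 ± 0.20 (SE, n = 3 per group) on the log2 scale from EpiSC to D3 (edgeR, adjusted p = 1.13e-12). As a ratio of CPM this was 25.6-fold, with a 95% exact counting interval of 15.1 to 47.3; such intervals cover counting error only and take 4 counts as 1 unit, the step in which low values bunch. From D3 to D5 Dppa2 fell by 0.64 ± 0.14 on the log2 scale (edgeR, adjusted p = 0.000816), the only one of the 4 to fall between these groups. D8 exceeded D5 by 3.91 ± 0.15 and rES exceeded D8 by 1.35 ± 0.13 (edgeR, adjusted p = 7.04e-12 and 3.21e-08). In ascending order Dppa2 ran EpiSC, D5, D3, D8, ESC, rES, and each neighbouring pair in that order was called different.

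Dppa4, whose protein binds Dppa2, did not share the early rise. It measured 0.755, 0.776 and 0.685 CPM in EpiSC and 0.652, 0.489 and 1.28 CPM at D3. The D3 values lay on both sides of the EpiSC values. The log2 difference was 0.14 ± 0.33 (edgeR, adjusted p = 0.747), and without D3 replicate 3, the highest of that group, it was -0.36 (adjusted p = 0.37), so no direction is given for this step.

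Dppa4 reached 2.44, 1.502 and 2.72 CPM at D5 and 14.5, 15.9 and 26.8 CPM at D8, so it increased at both steps with no overlap between groups. D5 exceeded EpiSC by 1.55 ± 0.30 on the log2 scale (edgeR, adjusted p = 0.000168) and D8 exceeded D5 by 3.08 ± 0.26 (adjusted p = 4.07e-08). Levels in rES, at 53.0, 53.3 and 51.2 CPM, fell within the range of ESC, at 49.2, 56.6 and 53.2 CPM. The rES minus ESC log2 difference was -0.01 ± 0.23 (adjusted p = 1). ESC stood 71.8-fold above EpiSC, with a counting interval of 51.5 to 103. In ascending order Dppa4 ran EpiSC and D3, not told apart, then D5, D8, and rES and ESC, not told apart.

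The neighbouring genes therefore had unequal proportions across groups. The log2 ratio of Dppa2 counts to Dppa4 counts was -1.44, -1.67 and -0.72 in the EpiSC libraries and 3.55, 3.86 and 2.47 in the D3 libraries. It was 0.80, 1.66 and 1.00 at D5 and 2.03, 2.11 and 1.80 at D8. Dppa4 counts were thus the larger in every EpiSC library and Dppa2 counts the larger in the other 15 libraries, with all 3 D3 values above those of any other group. The EpiSC ratios rest on only 16, 14 and 26 Dppa2 counts, near the 12 counts taken below as the smallest reliable amount. The D3 ratios rest on 40, 32 and 90 Dppa4 counts.

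In rES the ratio was 1.83, 1.86 and 1.82, with an SD of 0.019 around 1.84, and in ESC it was 1.43, 1.24 and 1.38, with an SD of 0.099 around 1.35. The rES and ESC values did not overlap. Scaled by exon length, 2.447 kb for Dppa2 and 1.662 kb for Dppa4, the Dppa2 level per kb was 0.28 times that of Dppa4 in EpiSC, 6.66 times at D3, 1.51 times at D5, 2.68 times at D8, 2.42 times in rES and 1.73 times in ESC. These ratios are given as a description with no test.

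**Figure D2:**
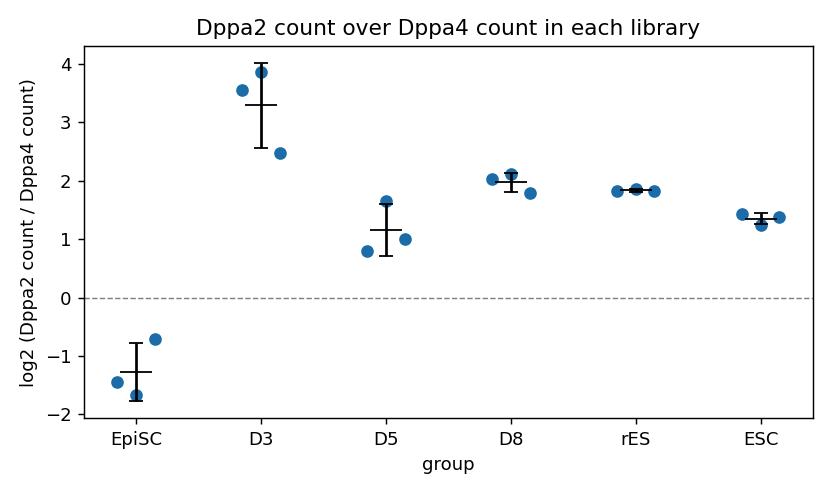
Log2 ratio of the Dppa2 count to the Dppa4 count in each library, by group. Points are libraries, bars the mean ± SD of 3, and the dashed line marks equal counts; EpiSC lies below the line at -1.28 and D3 farthest above it at 3.29.

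Dppa3, the UHRF1 antagonist, was the closest to absent at the start. The EpiSC libraries gave 0, 0 and 0.0623 CPM, the last being 4 counts, against a floor of 12 counts per library taken as the smallest reliable amount. Levels were 2.81, 2.54 and 1.91 CPM at D3, 10.5, 4.74 and 6.85 CPM at D5, and 18.1, 28.0 and 47.8 CPM at D8. Each group lay wholly above the one before it, and the spread within D8 was wide. The step from D3 to D5 was 1.60 ± 0.32 on the log2 scale (edgeR, adjusted p = 0.000311), from D5 to D8 2.08 ± 0.30 (adjusted p = 1.95e-05) and from D8 to rES 1.29 ± 0.29 (adjusted p = 0.000647).

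The ESC libraries held less Dppa3 than the rES libraries, at 19.1, 20.5 and 17.1 CPM against 76.0, 74.7 and 79.2 CPM. The rES minus ESC difference was 2.02 ± 0.30 (edgeR, adjusted p = 4.97e-05), and the rES mean was 406% of the ESC mean. The D8 mean also exceeded the ESC mean, with an ESC minus D8 difference of -0.73 ± 0.29 (adjusted p = 0.0319), but the groups overlapped. Without D8 replicate 3 that difference was -0.29 (adjusted p = 0.33), without ESC replicate 1 it was -0.73 (adjusted p = 0.0663), and without ESC replicate 3 it was -0.66 (adjusted p = 0.0934), so the order of D8 and ESC is not settled. In ascending order Dppa3 ran EpiSC, D3, D5, then ESC and D8, then rES.

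Because EpiSC had so few Dppa3 counts, its fold changes are poorly bounded. The ratio of CPM was 3636 in rES, with a counting interval of 652 to 143663, and 892 in ESC, with an interval of 160 to 35260. A list of 7 primordial germ cell markers without Dppa3 also had a higher sum in rES than in ESC, amounting to 1315 to 1338 CPM in rES, 802 to 866 CPM in ESC and 33.5 to 37.5 CPM in EpiSC. Most of that gap came from Dazl, an RNA-binding germ cell gene, at 739 against 292 CPM, and 2 of the 7 had the lower mean in rES, Ifitm3 at 87.8 against 128 CPM and Ddx4 at 14.6 against 16.6 CPM. All 7 had counts in each group, and their part in the Dppa3 difference was not tested.

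Dppa5a, the KH-domain RNA-binding protein gene, had the largest rise in CPM. It measured 0.273, 0.555 and 0.919 CPM in EpiSC, 2.59, 2.13 and 1.70 CPM at D3, and 24.4, 13.1 and 22.9 CPM at D5. It then reached 326, 402 and 599 CPM at D8. No 2 of these groups overlapped, and the rise continued through all of them.

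On the log2 scale the Dppa5a steps were 1.81 ± 0.35 from EpiSC to D3 (edgeR, adjusted p = 0.000189), 3.22 ± 0.27 from D3 to D5 (adjusted p = 1.32e-08) and 4.45 ± 0.26 from D5 to D8 (adjusted p = 5.37e-10). The rES libraries gave 1113, 1143 and 1099.6 CPM, and the ESC libraries 983, 1012 and 1010.5 CPM. All rES values lay above all ESC values, yet the difference of 0.16 ± 0.23 did not pass the test (adjusted p = 0.64). Fitted on rES and ESC alone it was 0.17 (adjusted p = 0.000818), so whether these groups differ depends on whose spread is used. The ESC mean was 1697-fold above EpiSC, with a counting interval of 1174 to 2554. In ascending order Dppa5a ran EpiSC, D3, D5, D8, then ESC and rES.

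Counted over the steps, 3 of the 4 genes were called higher at D3 than in EpiSC, all but Dppa4, where 34.1% of tested genes were higher and 30.2% lower. At D5 all 4 were higher than in EpiSC (37.7% of tested genes higher, 34.3% lower), and at D8 all 4 again (42.4% higher, 34.5% lower). Between D3 and D5, 3 rose and Dppa2 fell, against 29.9% of tested genes higher and 29.6% lower. From D5 to D8 all 4 rose, against 25.1% of tested genes, and from D8 to rES all 4 rose, against 32.7%. With 4 genes these counts describe the group and are not a test of it.

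From D8 to rES the genes increased by 1.35 ± 0.13 for Dppa2, 1.29 ± 0.29 for Dppa3, 1.46 ± 0.24 for Dppa4 and 1.34 ± 0.23 for Dppa5a on the log2 scale. D8 stood at 39.3%, 40.9%, 36.3% and 39.5% of the rES mean in that order. Against ESC, D8 was lower for Dppa2, Dppa4 and Dppa5a, so that 3 of 4 genes were called higher in ESC (32.4% of tested genes higher), and Dppa3 was called lower in ESC (38.8% lower) with the limits given above.

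As a percentage of the ESC mean, Dppa2 stood at 0.218% in EpiSC, 5.62% at D3, 3.60% at D5, 54.6% at D8 and 139% in rES. Dppa4 stood at 1.39%, 1.53%, 4.19%, 36.0% and 99.1% in the same order. Dppa5a stood at 0.0581%, 0.213%, 2.01%, 44.1% and 112%. Dppa3 was the one gene whose D8 mean exceeded its ESC mean, at 166%, after 12.8% at D3 and 39.0% at D5.

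**Figure D3:**
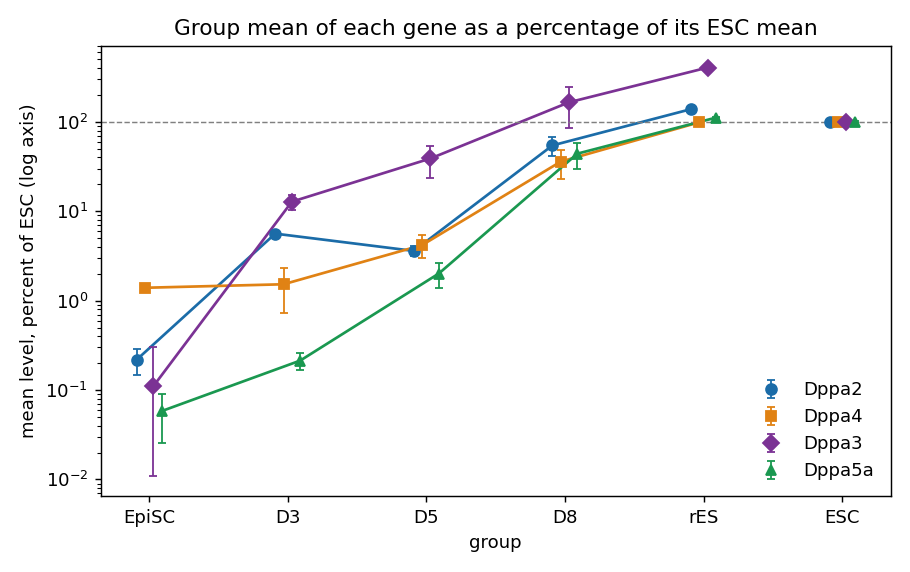
Group mean of each gene as a percentage of its own ESC mean, on a log axis, by group. Bars are the SD of 3 libraries (the lower bar of Dppa3 in EpiSC is shortened, since its SD exceeds its mean), lines join EpiSC to rES, and ESC stands apart at 100%; at D3 Dppa3 and Dppa2 are at 12.8% and 5.62% while Dppa5a is at 0.213%.

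Levels between genes were compared per kb of exon. In ESC the mean was 1618 CPM per kb for Dppa5a, 55.1 for Dppa2, 31.9 for Dppa4 and 21.2 for Dppa3. In rES it was 1807 for Dppa5a, 85.9 for Dppa3, 76.6 for Dppa2 and 31.6 for Dppa4. At D3 it was 3.46 ± 0.72 (SD) for Dppa5a, 3.10 ± 0.16 for Dppa2 and 2.71 ± 0.52 for Dppa3, and lower, at 0.486, for Dppa4. Dppa5a was thus the most abundant of the 4 per length in ESC and rES, and Dppa3 moved from the lowest in ESC to the second in rES. At D3 the order of Dppa5a, Dppa2 and Dppa3 is not settled, since their means lay close beside these SDs.

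Between the naive end states, 2 of the 4 genes were called higher in rES than in ESC, Dppa2 and Dppa3, and none lower. Across the genome 15.6% of tested genes were higher in rES and 17.9% lower. The Dppa2 difference was 0.47 ± 0.13 on the log2 scale (edgeR, adjusted p = 0.00792), smaller than the 2.02 ± 0.30 of Dppa3. The labels do not say whether rES and ESC share a line or a medium, so origin and condition cannot be told apart.

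The D8 libraries kept 1 order for these genes. Replicate 1 was the lowest and replicate 3 the highest for all 4, and the highest library exceeded the lowest 1.57-fold for Dppa2, 2.65-fold for Dppa3, 1.85-fold for Dppa4 and 1.84-fold for Dppa5a. The summed naive markers had the same order, at 833, 971 and 1585 CPM in replicates 1, 2 and 3, and so did the core pluripotency markers, at 683, 793 and 1154 CPM. The summed primed markers, at 70.7, 83.8 and 106.6 CPM, and primordial germ cell markers, at 365, 460 and 536 CPM, had it too. Singly, 8 of 10 naive, 4 of 6 core, 5 of 8 primed and 4 of 7 primordial germ cell markers had that order. All 16 naive and core markers were highest in replicate 3. The summed trophoblast markers had the reverse order, at 3268, 2925 and 2498 CPM, but that sum was mostly the keratin gene Krt8, at 2467, 2206 and 1847 CPM, and 5 of the 8 markers, Gata3, Tfap2c, Hand1, Cdx2 and Elf5, did not follow it. The summed fibroblast markers, at 1005, 1675 and 1186 CPM, followed neither order. The part of these differences in the Dppa spread was not tested.

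The genes next to the Dppa loci were examined on each side, among the 3 nearest protein-coding genes. Morc1, which silences transposons in the male germ line and starts 111.51 kb beyond Dppa2, had group means of 0.174, 1.48, 4.46, 35.0, 143 and 162 CPM in EpiSC, D3, D5, D8, rES and ESC. Its level was higher at each step up to rES, and rES and ESC did not differ by the test (log2 difference -0.17 ± 0.18, edgeR, adjusted p = 0.50). Gm5485, between Dppa2 and Morc1, had no count in any library. On the other side Nectin3, a cell adhesion gene 1785.21 kb from Dppa4, was lower in ESC than in EpiSC by 0.46 on the log2 scale, at 35.6 against 49.1 CPM, and Gm4737 was lower at 217.8 against 263.6 CPM. Trat1 and Cd96, T cell genes, stayed at or below 0.112 CPM in every group mean.

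Around Dppa3, Gdf3 and Nanog were both higher in ESC than in EpiSC, and unlike Dppa3 neither was higher in rES than in ESC. Gdf3, a TGF-beta family ligand 16.32 kb away, had means of 1.01, 2.57, 2.36, 38.0, 142 and 203 CPM over the 6 groups. Nanog, the homeobox pluripotency factor 77.22 kb away, had means of 40.9, 4.23, 16.8, 279, 830 and 1114 CPM, so its level fell from EpiSC to D3 while Dppa3 rose. In rES against ESC, Nanog was lower by 0.43 on the log2 scale (edgeR, adjusted p = 0.0391) and Gdf3 differed by -0.51 ± 0.21 (adjusted p = 0.0703). The glucose transporter gene Slc2a3 was also lower in rES, at 1246 against 1644 CPM.

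Apobec1, an RNA-editing deaminase gene 23.97 kb from Dppa3, and Foxj2, a forkhead factor gene, ran in other directions. Apobec1 was highest in EpiSC, at 12.8 CPM, and lower in ESC, at 6.49 CPM. Foxj2 peaked at D5, at 38.5 CPM, and was lower in rES than in ESC, at 8.32 against 16.5 CPM. None of Gdf3, Nanog, Slc2a3, Apobec1 and Foxj2 was called higher in rES than in ESC.

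Beside Dppa5a, Ooep had the highest level of the 6 neighbours. It encodes a KH-domain protein of the oocyte's subcortical maternal complex, lies 7.93 kb away, and had no count in EpiSC or D3, then 0.202, 20.2, 37.0 and 38.9 CPM at D5, D8, rES and ESC. Against the floor of 12 counts per library, ESC was at least 205-fold higher than EpiSC. Ddx43, an RNA helicase gene, and Cgas, the cytosolic DNA sensor gene, were called higher in ESC than in EpiSC, at 3.34 against 0.629 CPM and 6.22 against 0.584 CPM. Gsta2 stayed at or below 0.614 CPM, and Omt2a and Omt2b at or below 0.037 CPM, in every group mean.

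**Figure D4:**
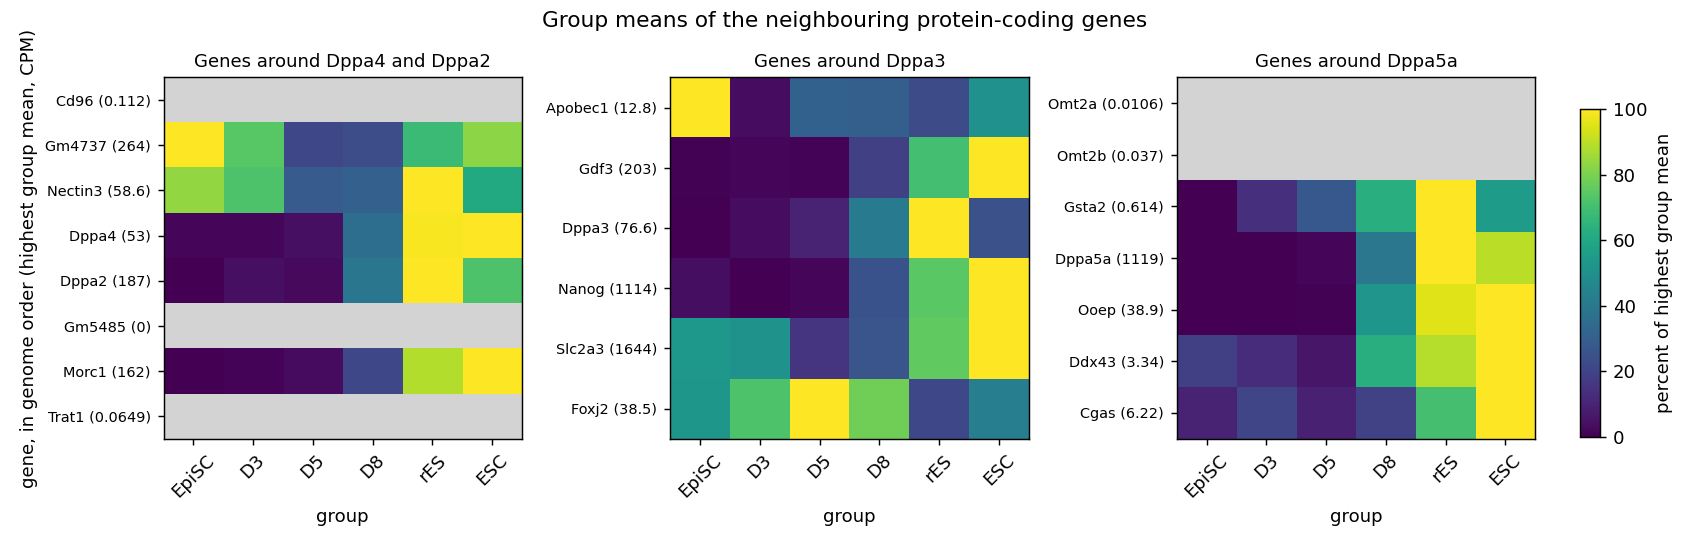
Group means of the protein-coding genes around Dppa4 and Dppa2, Dppa3 and Dppa5a, in genome order, as a percentage of each gene's highest group mean, given in CPM beside the name. Rows whose highest mean is under 0.2 CPM are grey; Morc1, Gdf3, Nanog and Ooep have their highest mean in ESC and Dppa3 its highest in rES.

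Genes of the early cleavage embryo, a set that Dppa2 and Dppa4 can activate, were mostly called higher from D8 on, while Dppa2 was already higher at D3. Of 19 listed genes 17 had a row and 16 were tested. At D3 and again at D5, Pramel6 and Pramel7 were called higher than in EpiSC and the 5 Usp17l genes lower, all 7 at levels under 1 CPM in every D3 and D5 library. Fitted on each pair of groups alone these calls came to 0 higher and 1 lower at both times, and without EpiSC replicate 1 or 2 no gene was higher at D3. At D8 13 were higher and none lower, in rES 14 and none, and in ESC 15 and none. The 16 include the Zscan4 copies and the 5 related Usp17l genes, so these counts and the medians below do not rest on 16 separate results. Of the 16 tested genes 9 had no count in EpiSC, so no lower call was possible for them. They passed the filter on low counts through groups where they were higher. Of all tested genes 34.1% were higher and 30.2% lower at D3, 37.7% and 34.3% at D5, and 42.4% and 34.5% at D8. In rES these shares were 31.9% and 37.5%, and in ESC 31.2% and 36.1%.

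The list's median log2 difference was 3.26 at D8, 4.58 in rES and 5.44 in ESC against EpiSC, and 2.72, 3.76 and 4.48 with genes that had no count in a group set at their floor. The median over all tested genes was 0.18, -0.09 and -0.07. Pramel6, a gene of the PRAME-like family, had no count in EpiSC and 18.1 ± 1.38 CPM in ESC, at least 95.1-fold higher. Zscan4f, Zscan4c and Zscan4a, telomere-linked zinc finger genes, had no count in EpiSC and means of 15.8, 13.6 and 7.97 CPM in ESC. These genes are near-identical copies, so how the counting split reads among them is uncertain.

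In rES against ESC, 4 of the 16 tested genes of this list were lower, all Zscan4 copies, and 1, Sp110, was higher. Of all tested genes 17.9% were lower and 15.6% higher. The 4 are near-identical copies, so they do not count as separate results. With these groups fitted alone 8 genes of the list were lower and 3 higher. Zscan4f was at 5.88 ± 0.875 CPM in rES and 15.8 ± 1.24 CPM in ESC (log2 difference -1.42, edgeR, adjusted p = 0.00219), and Zscan4b at 2.27 against 6.98 CPM (adjusted p = 0.00478). Zscan4c differed by -1.23 and Zscan4a by -1.44. Dppa2 was higher in rES and Dppa4 was not called different, so the Zscan4 copies and Dppa2 differed in opposite directions. The list did not move as 1: Pramel6 had means of 33.1 CPM in rES and 18.1 CPM in ESC. Pramel7 had 4.31 and 2.50 CPM, and neither of these 2 genes was called. Sp110, a nuclear body gene, was at 0.404 CPM in rES and had no count in ESC.

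COMPASS subunits, parts of a histone H3 methyltransferase complex reported to bind Dppa2 and Dppa4, were called in both directions. All 10 were tested: 3 were higher and 5 lower at D3 than in EpiSC, 1 and 6 at D5, 1 and 6 at D8, 5 and 1 in rES, and 4 and 2 in ESC. Of all tested genes 34.1% were higher and 30.2% lower at D3, 37.7% and 34.3% at D5, and 42.4% and 34.5% at D8. The shares were 31.9% and 37.5% in rES and 31.2% and 36.1% in ESC. The 3 higher at D3 and the 4 higher in ESC are near these shares. The 5 lower at D3, the 6 lower at D5 and at D8 and the 5 higher in rES are above them, and the remaining counts are below. With 10 genes these counts are a description and not a test. The core subunits Ash2l, Wdr5 and Rbbp5 were higher in ESC than in EpiSC by 1.58, 1.19 and 0.60 on the log2 scale, and Cxxc1, the CpG-binding subunit, was lower by 0.62. In rES against ESC the catalytic subunits Setd1b and Kmt2a were higher by 0.66 and 0.43 and Wdr5 by 0.28, while Ash2l was lower by 0.43. There 4 of the 10 were called higher and 1 lower, where 15.6% of tested genes were higher and 17.9% lower. The count of 4 higher came down to 1 or 2 when any 1 of the 6 libraries was left out.

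Dppa3 acts on DNA methylation, and the 12 listed genes that write, maintain or remove it were called in both directions. Against EpiSC, 4 were higher and 5 lower at D3, 5 and 7 at D5, 4 and 6 at D8, 6 and 6 in rES, and 5 and 6 in ESC. Of all tested genes 34.1% were higher and 30.2% lower at D3, 37.7% and 34.3% at D5, and 42.4% and 34.5% at D8. The shares were 31.9% and 37.5% in rES and 31.2% and 36.1% in ESC. The 4 of 12 higher at D3 and at D8 are not above these shares, and the remaining counts are above them. With 12 genes these counts are a description and not a test. The de novo methyltransferase gene Dnmt3b was lower in ESC by 4.12 on the log2 scale, at 71.5 against 1248 CPM. The dioxygenase genes Tet2 and Tet1, which oxidise methylcytosine, were higher by 4.11 and 2.17. Dnmt3l, the cofactor gene of Dnmt3b, was also called higher, at 10.8 against 0.187 CPM, but its EpiSC counts of 0, 0 and 36 rest on replicate 3, so no fold is given.

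Uhrf1 and Dnmt1, the maintenance pair that Dppa3 opposes, were chosen for mention after their values were seen. Uhrf1 was at 603 ± 21 CPM in rES and 627 ± 18 CPM in ESC (log2 difference -0.06, edgeR, adjusted p = 0.792), and Dnmt1 at 445 against 431 CPM (adjusted p = 0.742). The groups overlapped for both genes, while Dppa3 was 4.05-fold higher in rES by the fit. In that comparison Dnmt3b and Uhrf2, a relative of Uhrf1, were higher in rES by 0.95 and 0.72, and Tet2 and the glycosylase gene Tdg were lower by 1.24 and 0.24. In all, 2 of the 12 were called higher there and 2 lower, near the 15.6% and 17.9% of all tested genes. Without rES replicate 1, only 1 of the 12 was called lower.

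The KH-domain relatives of Dppa5a, most of them oocyte genes, numbered 5, all tested. Against EpiSC 2 were higher at D3, 4 at D5, 4 at D8, 5 in rES and 4 in ESC, and none was lower. In the same order 34.1%, 37.7%, 42.4%, 31.9% and 31.2% of all tested genes were called higher. Of the 5, 4 had no count in EpiSC and the other a mean of 0.0208 CPM there, so a lower call was hardly possible. They passed the filter on low counts through groups where they were higher. The D3 count was 1 without D3 replicate 3, and with each pair of groups fitted alone the counts were 0 at D3 and 2 at D5. Their median log2 difference in ESC was 4.16, or 1.44 with genes that had no count in EpiSC set at their floor, beside -0.07 over all tested genes. Khdc3, a partner of Ooep in the oocyte complex, had means of 0.0208, 0.219, 1.32, 42.1, 67.6 and 78.8 CPM from EpiSC to ESC. Khdc1a and Khdc1c, both under 5 CPM in every group, were called higher in rES than in ESC, 2 of the 5 beside 15.6% of all tested genes. Only 1 such gene was called without rES replicate 1, rES replicate 3 or ESC replicate 1.

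**Figure D5:**
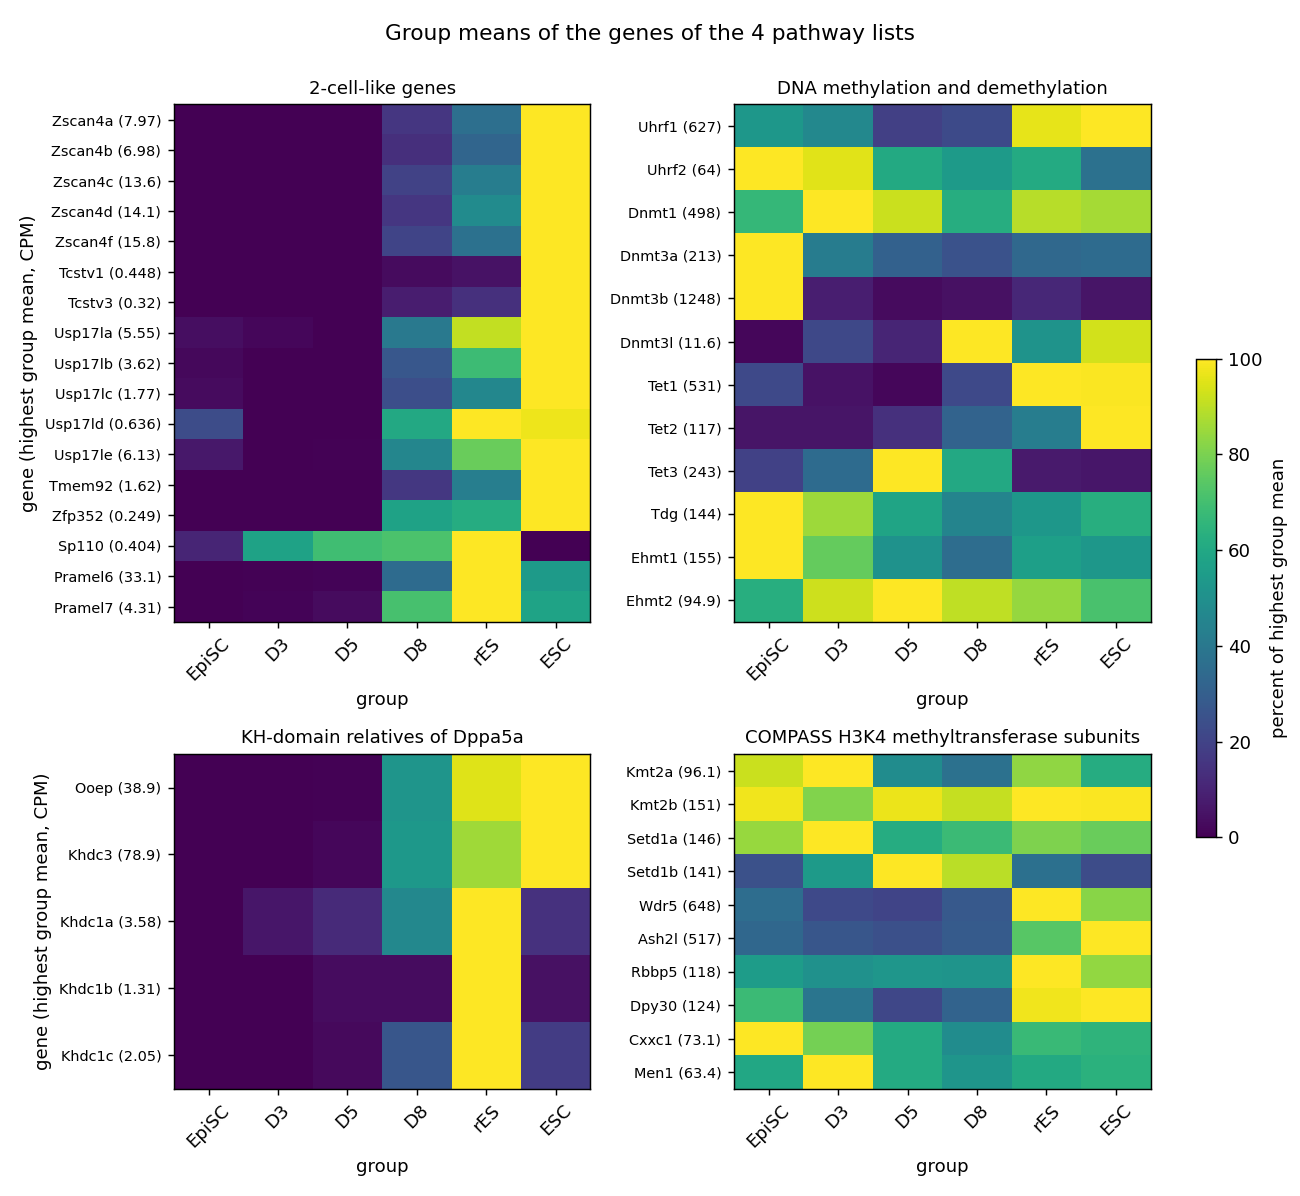
Group means of the genes of the 4 lists as a percentage of each gene's highest group mean, given in CPM beside the name; columns are the 6 groups. The Zscan4 copies have their highest mean in ESC, Pramel6 and the 3 Khdc1 genes in rES, and Dnmt3b in EpiSC.

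Among 11055 tested genes with at least 10 CPM in a group mean, those most like each Dppa gene were ranked by Pearson correlation of log2 CPM over the 18 libraries, which fall into 6 groups, so the correlations mostly reflect group means. For Dppa2 they were Fam169b (r = 0.996), Sgk1, Nr5a2, Casr and Cdo1. The genes named here and below were picked for likeness in these same libraries, so features they share with the Dppa genes follow from that choice. Nr5a2, a nuclear receptor gene, had means of 0.111, 4.39, 4.63, 35.6, 114 and 100.3 CPM over the 6 groups. It was higher at D3 than in EpiSC, but its mean did not fall from D3 to D5. For Dppa4 they were Mylpf (r = 0.995), Clca3b, Jam2, Accsl and Lipo3, and Jam2, a junction adhesion gene, stood at 0.864 CPM in EpiSC and 1.02 CPM at D3.

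For Dppa3 the ranking gave Brpf3 (r = 0.992), Pip5k1b, Rnf213, Alpl and Gtf2h1. Alpl, the tissue-nonspecific alkaline phosphatase used to stain pluripotent and germ cells, had means of 19.0, 139, 192, 376, 631 and 486 CPM, with rES above ESC. For Dppa5a it gave Phf11d (r = 0.994), Trim25, Mtus2, Gabarapl2 and Rps4l. No gene was in more than 1 of these 4 sets of 5.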

How the data were processed

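Ribosomal RNA was removed before library construction and fragments were read from both ends, per the labels' protocols. The submitters' processing notes name bcl2fastq, Trim Galore, HISAT2 and mm10, without versions. How reads were counted, with which annotation and strand setting, is not given in the sources used here. The values the authors deposited are expected counts: unscaled whole numbers for each symbol in each library. Low values bunch at multiples of 4, so 3 such units, 12 counts, were taken as the floor.

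All 18 libraries were fitted together with edgeR 4.0.16 (limma 3.58.1, R 4.3.3) after filterByExpr and TMM scaling, and 15 group pairs were compared by the quasi-likelihood F test with Benjamini-Hochberg adjustment over 17545 genes at 0.05. Log2 values used a prior count of 2. Standard errors are the absolute log2 difference over the square root of F and are approximate. The procedure was also run on simulated data in which few genes changed and all had the same spread. These groups differ in far more genes, so that run does not gauge the errors here. CPM is the count per M library counts scaled by TMM, and levels per kb used exon lengths from GENCODE vM21.

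The 4 genes, the gene lists and the tests were chosen with earlier results of these data known. The rule for named genes took the 4 Dppa genes, up to 4 called list members with at least 5 CPM and the largest log2 difference in ESC against EpiSC and in rES against ESC, the 3 protein-coding neighbours on each side, and the 5 genes most like each. Replicate numbers did not pair libraries: over 45 same-number pairs the residual correlation was -0.061 to 0.053. Alternatives were RLE scaling, DESeq2 1.42.0, no filter, 2 groups fitted alone, a replicate block, counts divided by 4, and leaving out each replicate. One neighbouring gene is not reported here. Promoter and protein sequences of the 4 genes were not analysed here.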

Additional observations from a re-analysis of the deposited data

Results flagged for a closer look

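The rES and ESC groups, both compared with EpiSC, differed from each other by the test for 2 of the 4 genes. Of all tested genes 15.6% were higher in rES than in ESC and 17.9% lower. The rise of Dppa2 from EpiSC was larger in rES than in ESC by 0.47 on the log2 scale, and that of Dppa3 by 2.02. In both cases all 3 rES libraries lay above all 3 ESC libraries, which restates that difference and is not a further result.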

How the results depend on the processing

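Over the 15 comparisons of 4 genes, 710 of 720 values under an alternative kept their direction and their side of the threshold. The exceptions lay in 4 results. For Dppa3 in ESC against D8, the log2 difference was -0.73 with these 2 groups fitted alone (edgeR, adjusted p = 0.0523) and ranged from -1.02 to -0.29 as each replicate was left out. For Dppa4 in D3 against EpiSC the range was -0.36 to 0.39. For Dppa4 in rES against ESC the difference was 0.021 with RLE scaling, 0.021 with DESeq2 and -0.065 to 0.034 as each replicate was left out, never past the threshold. For Dppa5a in rES against ESC it was 0.17 with these 2 groups fitted alone (adjusted p = 0.000818) and 0.14 to 0.17 as each replicate was left out. The replicate block changed none of the 60 calls; Dppa3 in ESC against D8 was -0.71 with it (adjusted p = 0.0493). RLE scaling moved the median of all genes by 0.11 to 0.15 on the log2 scale in rES and ESC against EpiSC. All 30 alternatives of the Dppa2 to Dppa4 ratio stayed within its SD. For those that left out a replicate this was fixed in advance, since leaving out 1 of 3 values cannot move a mean by its SD. Of 576 list counts, 30 moved by over 1.5 times. These lay in the cleavage-embryo and KH-domain lists at D3 and D5, and in rES against ESC for all 4 lists; DESeq2 and counts divided by 4 each gave 2 in place of 1 cleavage-embryo gene higher in rES. Counts divided by 4 gave 1 higher and 2 lower genes of that list at D3 and 3 lower at D5. The sets of most alike genes were the least stable: ranked by Spearman correlation they kept 0, 1, 1 and 0 of 5 genes for Dppa2, Dppa3, Dppa4 and Dppa5a, and over 6 group means 2, 4, 3 and 0. The cause was not tested.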

Other observations

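Dppa1, a gene with the same name stem, was looked at after the values were seen and followed another course. It had no count in EpiSC and means of 0.813 ± 0.242 CPM at D3, 2.19 ± 0.284 CPM at D5 and 8.25 ± 0.837 CPM at D8 (SD, n = 3). It was then at 0.507 ± 0.156 CPM in rES and 0.264 ± 0.0726 CPM in ESC. Its highest mean was at D8, where the other 4 genes stood at 36.3% to 40.9% of their rES means.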
